A study of Mus musculus with 20 samples.

Results

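The miR-183, miR-96 and miR-182 cluster is a set of 3 microRNA (miRNA) hairpins, and its 6 mature arms (miR-183-5p, miR-183-3p, miR-96-5p, miR-96-3p, miR-182-5p and miR-182-3p) were chosen by name. They are 6 of the 1137 miRNAs listed in at least 1 of the deposited tables, and all 6 were measured in both lines and passed the filter on low counts, which kept 813 miRNAs. The study counted miRNAs by small RNA sequencing while mouse embryonic stem cells (ESCs) were converted into epiblast stem cells (EpiSCs), the primed pluripotent state of the post-implantation epiblast. It used a female line, PGK, and a male line, E14. Naive ESCs in 2i medium were the day 0 samples. Later cells grew on fibronectin in N2B27 medium supplemented with Fgf2 and Activin A, the factors that hold the primed state, and were sampled at days 4 and 10 and in windows at days 19 to 23 and 27 to 30, the last of which is called late here. Each line was taken through differentiation experiments diff2 and diff3 (replicates 2 and 3), which gave 20 libraries in 10 groups of 2. Where 4 experiments are counted below, they are these 2 in each line. They are not taken as 4 independent experiments, since both lines carry the labels diff2 and diff3, which were read as shared experiments. The labels give no genetic change to either line. With 1 line per sex, sex and line cannot be told apart.

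A miRNA hairpin is cut by Drosha and Dicer into a duplex of a 5p and a 3p arm, of which usually 1 is loaded into an Argonaute protein and the other is degraded. The loaded arm pairs with messenger RNAs mainly through its seed, bases 2 to 8. The cluster is transcribed as 1 primary transcript and is best known from sensory cells of the retina and inner ear, where seed mutations of miR-96 cause hearing loss in mice and humans. It is also abundant in epithelia and in ESCs, and in human cells miR-96 and miR-182 have been reported to target FOXO1.

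The 3 hairpins are shown because their order and arms define what was counted. RefSeq (GRCm38.p6) places them on the minus strand of chromosome 6, Mir183 at chr6:30169668-30169737, Mir96 at chr6:30169446-30169551 and Mir182 at chr6:30165918-30165992, so that transcription meets Mir183 first. There are 116 bases between Mir183 and Mir96, and 3453 bases between Mir96 and Mir182. In GENCODE M21 no other gene overlaps the 3820 bases of the cluster. The nearest are the transcription factor gene Nrf1, 12459 bases below it, and the long non-coding RNA gene Rncr4, 3155 bases above it, both on the plus strand. In the hairpins below, written 5′ to 3′ from RefSeq, capitals mark the 5p and then the 3p arm.
Mir183: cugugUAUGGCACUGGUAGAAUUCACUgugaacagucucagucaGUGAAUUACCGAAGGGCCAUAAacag
Mir96: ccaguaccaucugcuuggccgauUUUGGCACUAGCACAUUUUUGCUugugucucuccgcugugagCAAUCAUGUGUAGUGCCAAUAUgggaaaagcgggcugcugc
Mir182: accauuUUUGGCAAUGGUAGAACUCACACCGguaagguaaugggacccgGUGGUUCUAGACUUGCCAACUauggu

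The 5p arms carry related seeds, and the mature sequences show how far they can be told apart. Capitals mark the seed.
mmu-miR-183-5p: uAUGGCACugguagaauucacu
mmu-miR-96-5p: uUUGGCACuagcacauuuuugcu
mmu-miR-182-5p: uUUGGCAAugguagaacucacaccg
mmu-miR-1271-5p: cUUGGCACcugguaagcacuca
The seed of miR-96-5p equals that of miR-183-5p at 6 of 7 positions and that of miR-182-5p at 6 of 7 positions. Between miR-183-5p and miR-182-5p it is 5 of 7, yet these share 18 of 22 positions over the whole of the shorter arm. By contrast miR-96-5p shares 13 of 22 positions with miR-183-5p and 12 of 23 with miR-182-5p. The 3 arms therefore differ by enough bases that a full-length read fits 1 of them, although the authors' rule for reads that fit several miRNAs is not given in the sources used here. Outside the cluster the RefSeq table holds 1 miRNA with the same bases 2 to 8 as miR-96-5p, miR-1271-5p of chromosome 13, which was not analysed here.

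Library totals lay between 7112398 and 18031067 counts. In all 4 day 0 libraries the 10 arms of miR-302 and miR-367, which mark primed cells, summed to between 168 and 585 CPM (counts per 1000000 counts of a library), against at least 9297 CPM in every later library. Replicate 3 at day 0 has the cell-type label of cells under differentiation (ESCs-EpiSCs) in both lines, but in this sum these libraries lie with the other day 0 libraries, at 194 CPM in PGK and 585 CPM in E14. Results that rest on them are therefore given with and without them. At the late stage 9 of the 10 tested arms of the naive miR-290 cluster were lower than at day 0 in each line, and 10 of 10 arms of miR-302 and miR-367 were higher. CPM here are scaled by the trimmed mean of M values (TMM), whose factors were 0.810 to 0.889 at day 0 and 1.05 to 1.34 at the late stage. Since a bulk library mixes all cells of a dish, fewer cells with an arm and less of it per cell cannot be told apart.

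Counts of the cluster came almost wholly from miR-182-5p, which was among the 4 most counted miRNAs of every library. The share of all counts taken by the 6 arms together in PGK was 10.97% ± 1.66 at day 0, 11.2% ± 2.48 at day 4, 12.4% ± 2.76 at day 10, 8.50% ± 1.28 in the window of days 19 to 23, and 7.95% ± 1.10 late (SD, n = 2 each). In E14 the 6 arms together took 14.7% ± 4.37 at day 0, then 11.2% ± 3.03 at day 4, 12.3% ± 2.42 at day 10, 10.7% ± 1.53 in the window of days 19 to 23, and 9.16% ± 1.60 late (SD, n = 2 each). Within the cluster miR-182-5p made up 83.5% to 89.2% of the counts of a library, miR-183-5p 9.97% to 15.1% and miR-96-5p 0.360% to 1.12%. The 3 3p arms together made up 0.210% to 0.563%. The order of the levels, miR-182-5p over miR-183-5p over miR-96-5p over miR-183-3p over both other 3p arms, was the same in all 20 libraries, whereas miR-96-3p and miR-182-3p changed places between libraries. These are ratios of counts of different small RNAs, whose capture during library preparation can differ.

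**Figure D1:**
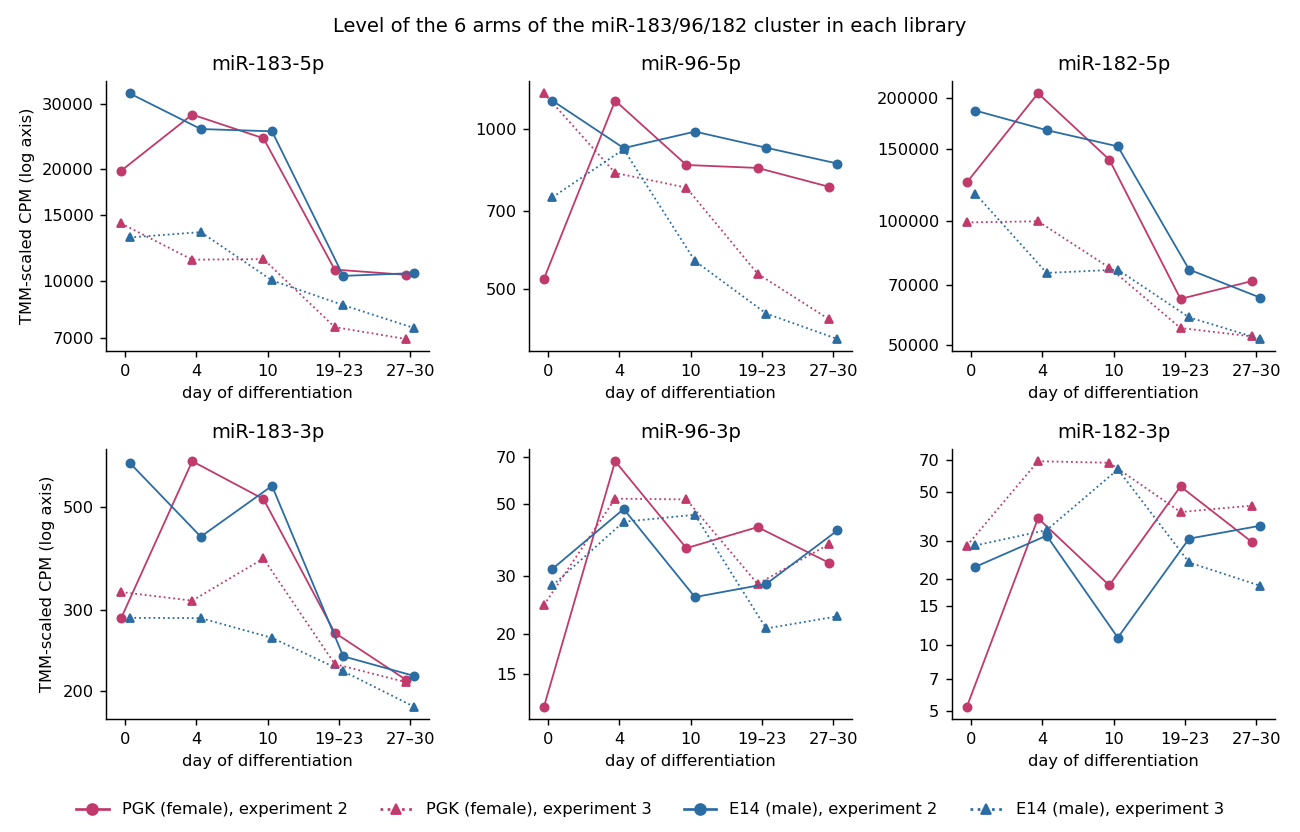
TMM-scaled CPM (log axis, one scale per panel) of the 6 arms in each library against the day of differentiation, with a line for each differentiation experiment of the female line PGK and the male line E14. The 5p arms of miR-183 and miR-182 end below their day 0 values in all 4 experiments, and replicate 2 lies above replicate 3 in all 10 groups.

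The most abundant arm, miR-182-5p, overlapped with its day 0 level to day 10 and lay below it in every library after that. In PGK it had 124519 and 99472 CPM at day 0 (replicates 2 and 3), 205378 and 100094 CPM at day 4, 141533 and 77169 CPM at day 10, 64730 and 54956 CPM at days 19 to 23, and 71530 and 52443 CPM late. In E14 it had 186399 and 116892 CPM at day 0, 167019 and 74906 CPM at day 4, 152442 and 76275 CPM at day 10, 76331 and 58353 CPM at days 19 to 23, and 65172 and 51673 CPM late. In both lines every library of days 19 to 30 lies below every day 0 library, while days 4 and 10 overlap with day 0. How many of all tested miRNAs separate from day 0 in this way was not counted, here or for the levels of the arms below. The median change of all 813 tested miRNAs was near 0 at each stage (-0.04 to 0.09 on the log2 scale).

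In late E14 cells miR-182-5p fell by 1.38 ± 0.46 on the log2 scale (SE), to 0.385 of its day 0 level (edgeR quasi-likelihood test, Benjamini-Hochberg adjusted p = 0.0271). In late PGK cells the change was -0.85 ± 0.45 (adjusted p = 0.141), which did not pass. At days 19 to 23 it was -0.90 ± 0.45 in PGK (adjusted p = 0.121) and -1.17 ± 0.46 in E14 (adjusted p = 0.0611). The experiments differed in level, and a fit with the experiment as a replicate block gave similar changes with smaller errors. With the block miR-182-5p was lower at both stages in both lines, with adjusted p = 0.00816 at days 19 to 23 and 0.00913 late in PGK, and 0.00227 and 0.000710 at those stages in E14. The block takes 1 replicate effect as shared by all stages. Over all tested miRNAs, however, the replicate difference at day 0 correlated little with that at these stages, at -0.0179 to 0.136.

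The next arm in level, miR-183-5p, followed the same course. In PGK it had 19758 and 14267 CPM at day 0, 28009 and 11389 CPM at day 4, 24183 and 11430 CPM at day 10, 10713 and 7498 CPM at days 19 to 23, and 10369 and 6964 CPM late. In E14 it had 31960 and 13072 CPM at day 0, 25610 and 13513 CPM at day 4, 25252 and 10016 CPM at day 10, 10299 and 8594 CPM at days 19 to 23, and 10484 and 7449 CPM late. In TMM-scaled CPM all libraries of days 19 to 30 are again below the day 0 libraries of their line. As a share of all counts they overlap with day 0. In PGK replicate 2 miR-183-5p took 1.31% at days 19 to 23, against 1.21% in day 0 replicate 3. In E14 replicate 2 it took 1.40% late, against 1.16% in day 0 replicate 3. Replicate 2 was above replicate 3 in 10 of 10 groups, by a median of 0.75 on the log2 scale, and the same held for miR-182-5p with a median of 0.56.

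Without the block no change of miR-183-5p passed. It was -0.97 ± 0.56 in late PGK cells (adjusted p = 0.173) and -1.33 ± 0.57 in late E14 cells (adjusted p = 0.0740), after -0.90 ± 0.56 and -1.25 ± 0.57 at days 19 to 23 (edgeR adjusted p = 0.216 in PGK, and 0.1003 in E14). With the experiment as a replicate block all 4 passed, with adjusted p = 0.0208 and 0.0124 in PGK and 0.00853 and 0.00446 in E14 at days 19 to 23 and late. Compared within each experiment of a line, TMM-scaled miR-183-5p and miR-182-5p were lower than at day 0 at both stages. This held in 4 of 4 experiments (replicates 2 and 3 in each line). As a share of all counts, however, miR-183-5p in E14 replicate 3 was higher at days 19 to 23 (1.23%) than at day 0 (1.16%). How many of all tested miRNAs were lower in 4 of 4 experiments was not counted. The late log2 changes within an experiment ran from -1.61 to -0.81 for miR-183-5p and from -1.52 to -0.80 for miR-182-5p.

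The 3p arm of miR-183 lay far below its partner. It had 212 and 209 CPM in late PGK cells, against 287 and 327 CPM at day 0, and 216 and 185 CPM in late E14 cells, against 623 and 288 CPM at day 0. In both lines the late libraries are below the day 0 ones in TMM-scaled CPM, but overlap with them as a share of all counts. In late E14 cells it fell by 1.19 ± 0.46 on the log2 scale (edgeR adjusted p = 0.0498, and 0.0246 with the block), and in late PGK cells the change was -0.55 ± 0.45 (adjusted p = 0.343).

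No change of miR-96-5p passed at any stage in either line, with or without the block. Its levels in PGK were 523 and 1166 CPM at day 0, 1130 and 827 CPM at day 4, 855 and 776 CPM at day 10, 845 and 535 CPM at days 19 to 23, and 779 and 439 CPM late. In E14 they were 1130 and 744 CPM at day 0, 920 and 916 CPM at day 4, 988 and 565 CPM at day 10, 922 and 450 CPM at days 19 to 23, and 861 and 403 CPM late. Late and day 0 libraries overlap in both lines, and 3 of 4 experiments gave a lower late value. The exception is PGK replicate 2, whose day 0 level of 523 CPM is the lowest of the 4 day 0 libraries. The late change was -0.47 ± 0.51 in PGK (95% interval -1.56 to 0.62, edgeR adjusted p = 0.476) and -0.57 ± 0.51 in E14 (95% interval -1.66 to 0.52, adjusted p = 0.402). These intervals include the late changes of miR-182-5p and miR-183-5p.

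The 3p arm of miR-96 rose early in PGK. It had 11.9 and 24.5 CPM at day 0, 67.7 and 52.0 CPM at day 4, 36.6 and 51.7 CPM at day 10, 42.5 and 28.4 CPM at days 19 to 23, and 33.0 and 37.6 CPM late. Every later PGK library is above both day 0 libraries. The arm rose by 1.72 ± 0.45 on the log2 scale at day 4 (edgeR adjusted p = 0.00790) and by 1.28 ± 0.45 at day 10 (adjusted p = 0.0336), with unchanged calls under the block. Its changes of 0.96 ± 0.45 at days 19 to 23 and 0.96 ± 0.45 late did not pass (edgeR adjusted p = 0.0953 and 0.0949).

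In E14 miR-96-3p had 31.6 and 28.1 CPM at day 0, 48.3 and 44.1 CPM at day 4, 25.9 and 46.4 CPM at day 10, 28.4 and 20.7 CPM at days 19 to 23, and 41.5 and 22.6 CPM late. The day 4 libraries are above day 0 there too, and no change passed. Compared within experiments, day 4 was higher than day 0 in 4 of 4, by 0.61 to 2.51 on the log2 scale.

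The least counted arm, miR-182-3p, varied most between experiments. In PGK it had 5.2 and 28.4 CPM at day 0, 37.9 and 69.0 CPM at day 4, 18.7 and 67.9 CPM at day 10, 52.9 and 40.5 CPM at days 19 to 23, and 29.6 and 43.3 CPM late. In E14 the lowest library had 10.8 CPM and the highest 63.3 CPM, both at day 10. The 5.2 CPM rest on 54 counts, which is well above the 0.422 CPM that 3 counts make in the shallowest library. No change of miR-182-3p passed at any stage in either line. Late PGK libraries lie above the day 0 ones (log2 change 1.12 ± 0.80, edgeR adjusted p = 0.276), and late E14 libraries overlap with day 0 (0.07 ± 0.79, adjusted p = 0.955).

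**Figure D2:**
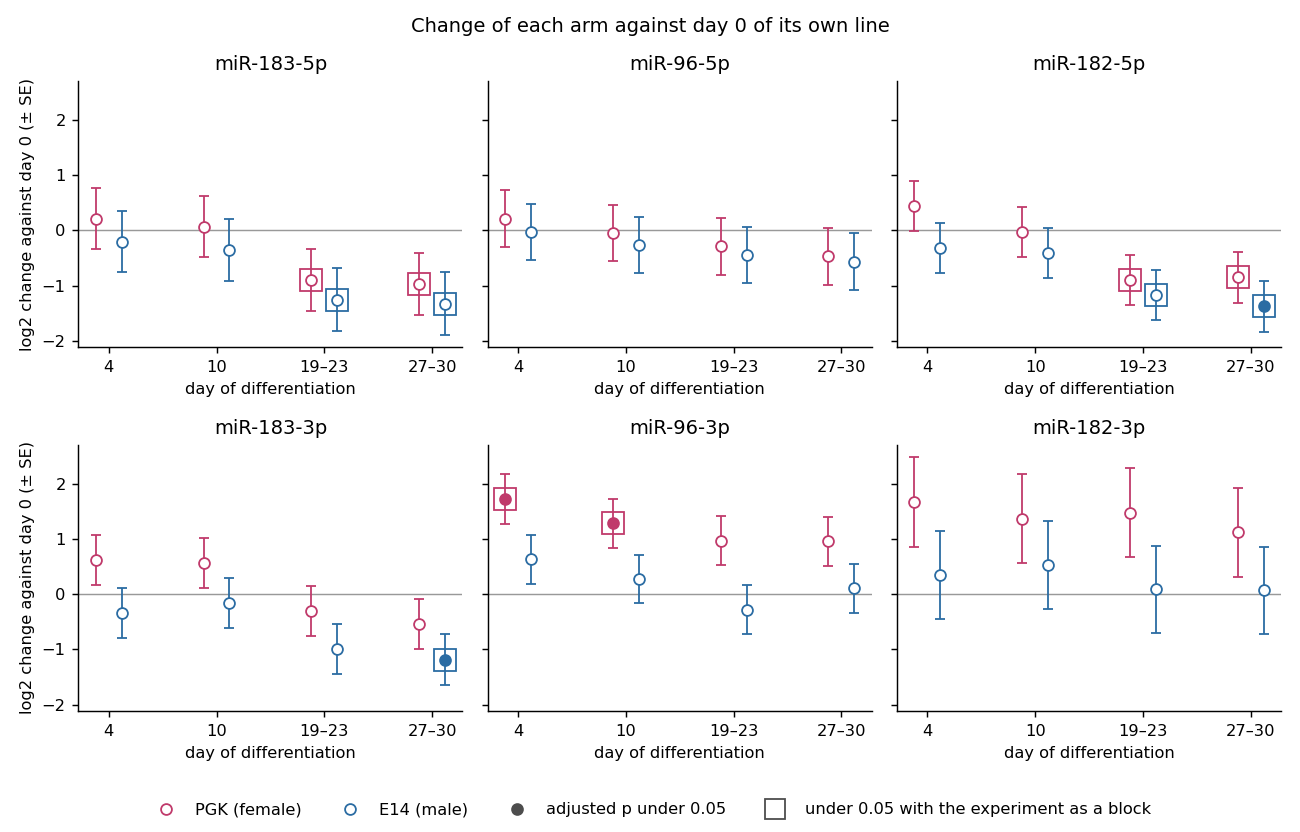
Log2 change of each arm against day 0 of its own line with its SE, by stage, for PGK and E14. Filled points have an adjusted p under 0.05, and squares mark changes that pass with the experiment as a replicate block. The squares in the upper row lie at days 19 to 23 and late for miR-183-5p and miR-182-5p in both lines, and miR-96-5p has none.

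In counts over the 6 arms, 1 rose in PGK at day 4, where 24.5% of the tested miRNAs were higher and 39.1% changed in either direction, and 1 at day 10, where 21.3% were higher and 40.1% changed. None passed in PGK at days 19 to 23 or late, against 40.5% and 43.5% of all tested miRNAs. In E14 none passed at days 4, 10 and 19 to 23, against 43.4%, 33.7% and 34.3%, and 2 fell late, where 21.2% of all were lower and 40.7% changed. Over all 8 comparisons with day 0, which share the day 0 libraries of their line, 4 of 48 arm tests passed and 10 of 48 had an unadjusted p under 0.05. With the block 11 of 48 passed, and it called 43.7% and 43.2% of all miRNAs in PGK at days 4 and 10 and 47.0% and 38.5% in E14 at those days. The 11 tests included 2 arms each in PGK at days 19 to 23 and late, where the block called 44.8% and 48.2% of all miRNAs, and 2 and 3 arms in E14 at those stages, where it called 38.3% and 44.2%. With the block, the share of arms called was thus at or below that of all miRNAs in 3 of these 4 comparisons.

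Single libraries decide several of these calls. Without PGK day 0 replicate 2, the library with the lowest miR-96-3p, the day 4 change of that arm was 1.11 (edgeR adjusted p = 0.108) and its day 10 change 0.90 (adjusted p = 0.187). Without PGK day 4 replicate 2 the day 4 change had an adjusted p of 0.0568, and without PGK day 10 replicate 3 the day 10 change had 0.175 (edgeR). Without E14 day 0 replicate 2, the library highest in miR-182-5p and miR-183-5p at day 0, the late E14 changes were -1.04 for miR-182-5p (adjusted p = 0.131) and -0.57 for miR-183-3p (adjusted p = 0.372). Without late E14 replicate 2 or 3 neither passed, and miR-183-3p also missed the threshold without either PGK library of days 19 to 23 (edgeR adjusted p = 0.0551 and 0.0597). Over other settings the late E14 call of miR-183-3p was also lost with RLE scaling (adjusted p = 0.0555), total counts (0.267), no filter (0.0919), each line alone (0.0765) and limma on the deposited log2 values (0.152). The late E14 call of miR-182-5p was lost with limma alone among these (adjusted p = 0.0876).

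Without the day 0 library of replicate 3 of its own line, whose cell-type label differs, 2 arms passed in PGK at day 4, 1 at day 10, and 1 in each of both later windows. In E14 this leaves replicate 2 as the only day 0 library, the higher one in miR-182-5p, at 186399 CPM against 116892 CPM in replicate 3. A fit against it alone therefore cannot show whether the late E14 calls need replicate 3. Within E14 replicate 2 the late log2 change was -1.52 for miR-182-5p and -1.53 for miR-183-3p, and within replicate 3 it was -1.18 and -0.64. Leaving out E14 day 10 replicate 3 changed the number of arms called in E14 at days 19 to 23.

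The size of the late fall depends on the scaling between libraries. Scaling by total counts moved the median change of all tested miRNAs to 0.42 in late PGK and 0.71 in late E14 cells. Under it miR-182-5p changed by -0.45 in late PGK cells and by -0.70 in late E14 cells (edgeR adjusted p = 0.182 and 0.0449), and miR-183-5p by -0.58 and -0.64 in those lines. Both arms kept their direction under both scalings. At days 19 to 23 the median moved to 0.58 in PGK and 0.68 in E14, and miR-182-5p changed by -0.38 and -0.45 there. The late change of miR-96-5p in E14 was 0.10 under total counts, so its sign depends on the scaling. The median moved to -0.20 in PGK at day 4, where the rise of miR-96-3p was then 1.40 (edgeR adjusted p = 0.0519) and did not pass.

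After day 4 the estimated steps of miR-182-5p and miR-183-5p were largest between day 10 and days 19 to 23, but no step passed a test. Over that step miR-182-5p changed by -0.87 ± 0.45 in PGK and -0.76 ± 0.45 in E14, and miR-183-5p by -0.97 ± 0.56 and -0.90 ± 0.56. The PGK libraries of days 19 to 23 are below those of day 10 for both arms, while the E14 groups overlap. From days 19 to 23 to the late stage both arms changed by between -0.20 and 0.05 in either line. Over all steps none of the 36 arm tests between successive stages passed in edgeR (lowest adjusted p = 0.491, or 0.237 with the block), none passed with the block, and none had an unadjusted p under 0.05. Over all miRNAs the step to day 10 called 6.52% in PGK and 8.12% in E14, that to days 19 to 23 called 0.369% and 0.246%, and the last step called 0% in both lines. With the block the step to day 10 called 8.73% in PGK and 11.6% in E14, and the others as many as without it.

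No arm passed a test between the female and the male line. Over 5 stages 0 of 30 arm tests of PGK over E14 passed in edgeR (lowest adjusted p = 0.409), with 0 at an unadjusted p under 0.05, and 0 with the block (lowest adjusted p = 0.376). At day 0 these lines differed in 8.73% of all tested miRNAs and at day 4 in 5.04%, and from day 10 on in 0%. With the block it was 10.8% at day 0, 7.26% at day 4, 2.09% at day 10 and 0% after it. At day 0 the PGK over E14 log2 difference of miR-182-5p was -0.44 (95% interval -1.40 to 0.53) and that of miR-183-5p -0.40 (-1.59 to 0.78). Late differences were 0.09 (-0.88 to 1.05) for miR-182-5p and -0.05 (-1.24 to 1.14) for miR-183-5p, so changes of up to about the size of the late fall are inside the intervals.

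Whether the change itself differed between the lines was tested by the interaction, the PGK change minus the E14 change. None of 24 arm tests passed in edgeR (lowest adjusted p = 0.429, or 0.247 with the block), and 0 had an unadjusted p under 0.05. Among all miRNAs 0% passed at days 4, 10 and 19 to 23 and 0.369% late, and with the block 1.85% at days 19 to 23 and 2.46% late. That 2 arms passed late in E14 and none in PGK is therefore no shown difference between the lines. For miR-96-3p at day 4, called in PGK alone, the interaction was 1.09 ± 0.62 (95% interval -0.24 to 2.42, edgeR adjusted p = 0.429).

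The arms of a hairpin are counted in the same library, so their ratio needs no scaling. For miR-96 the count of the 5p arm over that of the 3p arm was 23.6 and 11.7 in late PGK libraries and 20.7 and 17.8 in late E14 libraries, against 43.9 and 47.7 in PGK and 35.7 and 26.5 in E14 at day 0. All 4 late libraries are below all 4 day 0 libraries. The mean log2 ratio was 4.16 ± 0.44 late and 5.23 ± 0.38 at day 0 (SD, n = 4 each), a difference of -1.07, or a 2.10-fold lower ratio (exact permutation test, two-sided, p = 0.0286, the smallest that 4 against 4 allows, and 0.0429 adjusted over the 3 hairpins). The ratio was lower at day 4 too, at 15.9 to 20.7. It overlapped with day 0 in between, at 12.2 to 38.2 at day 10 and 18.8 to 32.5 at days 19 to 23.

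For miR-182 the ratio was 2419 and 1212 in late PGK libraries and 1860 and 2773 in late E14 libraries, against 23840 and 3505 in PGK and 8194 and 4105 in E14 at day 0. The groups again do not overlap. The mean log2 ratio was 10.94 ± 0.53 late and 12.82 ± 1.25 at day 0 (SD, n = 4 each), a difference of -1.88, or a 3.68-fold lower ratio (exact permutation test, two-sided, p = 0.0286, adjusted p = 0.0429). At day 4 it ranged from 1451 to 5417 and overlapped with day 0. At day 10 it ranged from 1137 to 14099, with replicate 2 far above replicate 3 in both lines. The libraries of days 19 to 23, at 1223 to 2495, were all below those of day 0.

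For miR-183 the late ratio of 33.3 to 49.0 overlaps with the day 0 ratio of 43.6 to 68.8. The log2 difference was -0.28 (exact permutation test, two-sided, p = 0.229, adjusted p = 0.229). All 3 hairpins had a lower ratio late than at day 0 in 4 of 4 experiments.

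Both calls rest on few libraries, 4 against 4. The permutation test takes these libraries as independent and ignores the line and experiment that late and day 0 libraries share, so its p can be inexact. Leaving out any 1 of the 4 late libraries put the adjusted p of the miR-96 and miR-182 ratios between 0.0857 and 0.129 (exact permutation tests), while leaving out any day 0 library left both calls in place. Groups without overlap cannot come to overlap when a library is left out, so their separation does not show whether a call rests on 1 late library. With the replicate block, as sign flips of the 4 experiments' differences, both have the smallest p that design allows, 0.125, so it cannot reach the threshold. As a description, 289 hairpins had both arms tested, and their ratios fell without overlap in 10.4% and rose without overlap in 9.34%. The median log2 difference of the other 286 was -0.02, with quartiles at -0.47 and 0.58.

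**Figure D3:**
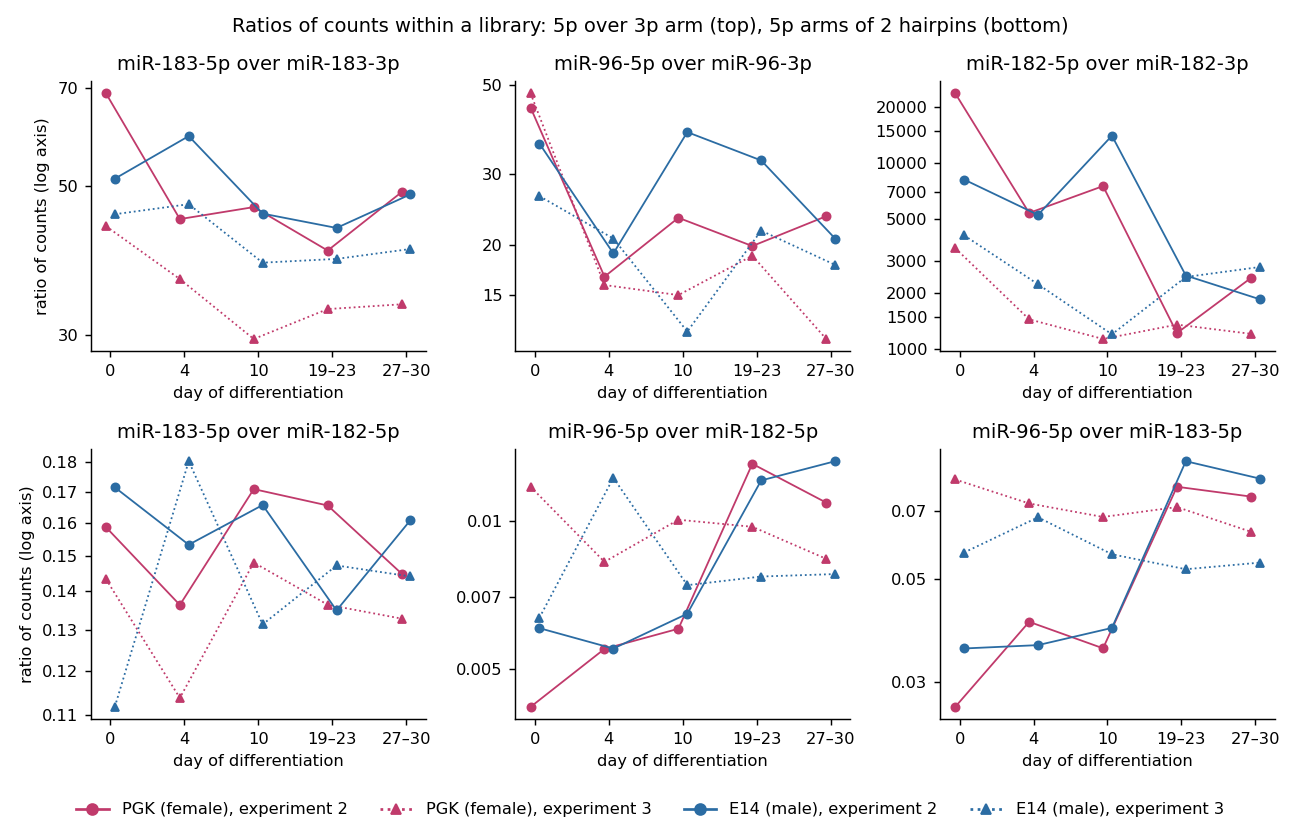
Ratios of counts within a library (log axis, one scale per panel) by stage, for the 5p over the 3p arm of each hairpin in the upper row and for pairs of 5p arms in the lower row, with a line for each experiment of PGK and E14. The 4 late libraries lie below the 4 day 0 libraries for miR-96 and miR-182 in the upper row, and the late and day 0 libraries overlap in the other 4 panels.

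The proportion of miR-183-5p to miR-182-5p did not differ beyond the spread between libraries. There were 0.145 and 0.133 counts of miR-183-5p per count of miR-182-5p in late PGK libraries and 0.161 and 0.144 in late E14 libraries, against 0.159 and 0.143 in PGK and 0.171 and 0.112 in E14 at day 0. The log2 difference was 0.01 (exact permutation test, two-sided, p = 0.886), and within the experiments it ran from -0.13 to 0.37. For miR-96-5p over miR-182-5p the log2 difference was 0.58 (exact permutation p = 0.171, adjusted p = 0.343) and over miR-183-5p 0.57 (exact permutation p = 0.229, adjusted p = 0.343). The experiments went opposite ways in the last ratio. In replicate 2 miR-96-5p per miR-183-5p was higher late than at day 0 in both lines, and in replicate 3 it was lower in both, by up to 1.51 higher and 0.37 lower on the log2 scale.

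Over the 10 group means, the log2 levels of the 3 5p arms and miR-183-3p correlated with each other at Pearson's r between 0.91 and 0.97. Among the other 3p arms, miR-96-3p and miR-182-3p correlated at 0.86 with each other and at no more than 0.43 with the rest of the cluster. These correlations describe 10 groups that share lines, experiments and the scaling of each library.

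The miRNAs whose group means were most like the mean of the 3 5p arms, among 328 with a mean of at least 50 CPM, were miR-141-3p (r = 0.99), miR-200c-3p (r = 0.97), miR-30e-3p (r = 0.95), miR-25-3p (r = 0.91) and miR-148a-5p (r = 0.90). The first and second are neighbours on chromosome 6 and belong to the miR-200 family, which keeps epithelial cells from turning mesenchymal by acting on Zeb1 and Zeb2. Their late changes were larger than those of the 5p arms, and not every step was alike, since miR-200c-3p rose by 1.43 on the log2 scale in PGK at day 4 (edgeR adjusted p = 0.00653). The mean level of miR-141-3p in PGK was 198 CPM at day 0, 476 CPM at day 4, 268 CPM at day 10, 22.8 CPM at days 19 to 23 and 10.6 CPM late, and in E14 it was 1138, 623, 237, 23.5 and 7.18 CPM at these stages. It changed by -4.23 on the log2 scale in late PGK cells and by -7.31 in late E14 cells (edgeR adjusted p = 3.96e-05 and 2.37e-06). For miR-200c-3p the late change was -3.61 in PGK and -5.23 in E14 (edgeR adjusted p = 1.09e-05 and 1.02e-06). Of the other three, miR-25-3p fell late in E14, with a log2 change of -1.20 (edgeR adjusted p = 0.0305), and had -0.79 in PGK (adjusted p = 0.128). In late PGK and E14 cells miR-30e-3p had -0.52 and -0.88 and miR-148a-5p -0.68 and -1.40, none of which passed.

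**Figure D4:**
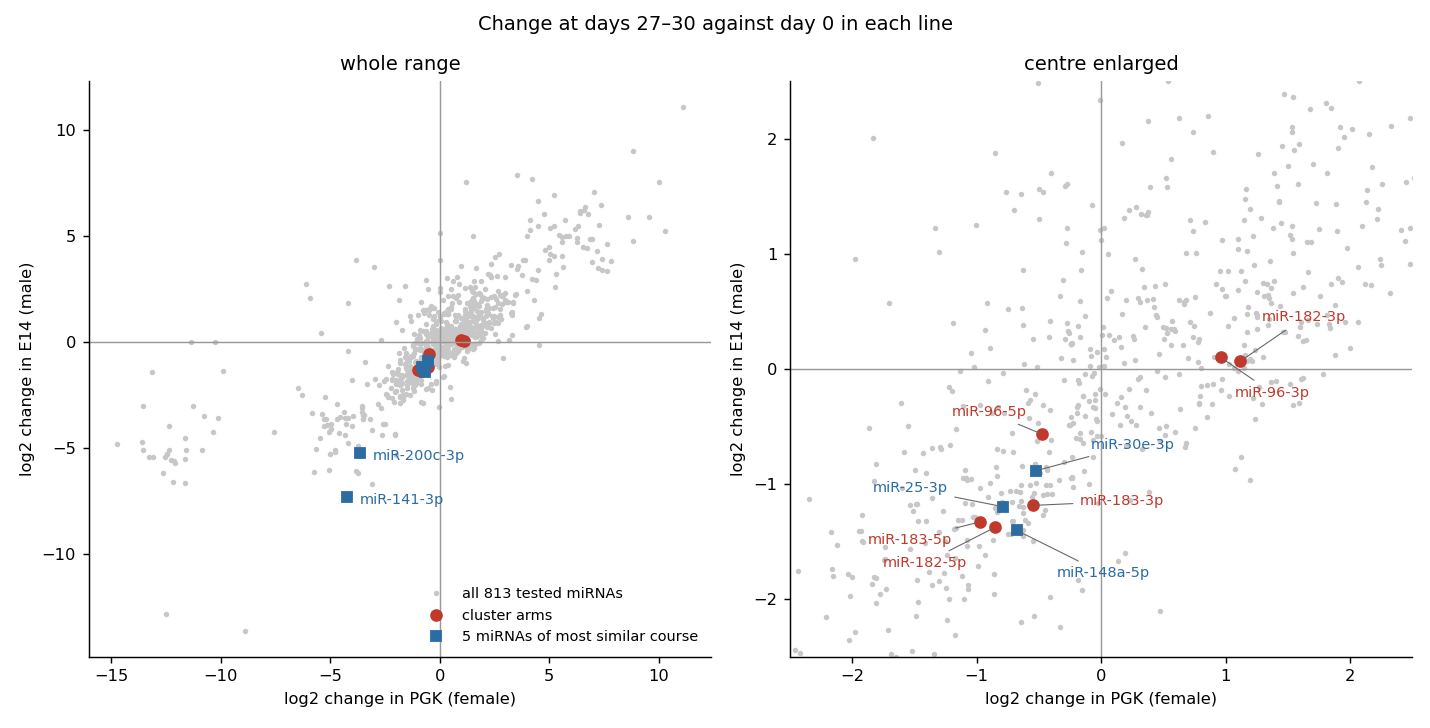
Log2 change at days 27 to 30 against day 0 in PGK (horizontal) and in E14 (vertical) for all 813 tested miRNAs, over the whole range on the left and enlarged around 0 on the right. The 3 5p arms and miR-183-3p lie at the lower left beside miR-30e-3p, miR-25-3p and miR-148a-5p, miR-96-3p and miR-182-3p lie right of 0, and miR-141-3p and miR-200c-3p lie far lower.

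Other epithelial miRNAs moved both ways. Of 13 tested arms of the miR-200 family, miR-203 and miR-205, 10 rose and 0 fell in PGK at day 4 and 3 rose and 0 fell in E14 at day 4, where 39.1% of all tested miRNAs changed in PGK and 43.4% in E14. Late, 5 rose and 3 fell in PGK and 2 rose and 5 fell in E14, where 43.5% and 40.7% of all tested miRNAs changed. Their late median log2 change was 1.13 in PGK and -0.76 in E14, against 0.01 and 0.05 over all tested miRNAs. The most abundant, miR-200b-3p of the chromosome 4 miR-200 genes, had a late change of 1.84 in PGK (edgeR adjusted p = 0.0167) and 0.35 in E14 (adjusted p = 0.645). For miR-205-5p, an epithelial miRNA of chromosome 1, the late change was -1.82 in PGK (adjusted p = 0.0990) and -2.54 in E14 (edgeR adjusted p = 0.0316).

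Other miRNAs known from sensory organs also rose in some cases and fell in others. Of 12 tested, 4 rose and 3 fell in late PGK cells and 5 rose and 4 fell in late E14 cells, where 43.5% and 40.7% of all tested miRNAs changed. Their median log2 changes were 0.79 in PGK and -0.15 in E14. The most abundant were miR-181a-5p, whose late change was 4.38 in PGK and 2.92 in E14 (edgeR adjusted p = 0.00177 and 0.0176), and miR-181b-5p, with 4.51 and 3.40 (adjusted p = 0.000538 and 0.00411). A brain and retina miRNA, miR-9-5p, had 0.74 in PGK (edgeR adjusted p = 0.276) and rose by 2.06 in E14 (adjusted p = 0.00879). The fourth, miR-211-5p, known from pigmented cells, had 2 and 4 counts in late PGK and 1 and 7 counts in late E14 libraries, against 15286 and 19936 in PGK and 20524 and 38290 in E14 at day 0 (edgeR adjusted p = 2.65e-06 in PGK and 2.63e-06 in E14).

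Beside miR-96 and miR-182, miR-27b-3p and miR-27a-3p have been reported in human cells to act on FOXO1, and 1 of them fell in both lines. Late cells had less miR-27b-3p, by -1.25 in PGK and -1.90 in E14 on the log2 scale (edgeR adjusted p = 0.00328 and 0.000244). By contrast miR-27a-3p rose by 1.17 in late PGK cells (edgeR adjusted p = 0.0166) and had 0.32 in E14 (adjusted p = 0.505).

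No tested neighbour of the cluster on chromosome 6 was called lower. Of 6 tested miRNAs with a gene within 2 Mb, 3 rose in late PGK cells and 2 in late E14 cells, and 0 were called lower in either line. Of all tested miRNAs 43.5% changed in late PGK and 40.7% in late E14 cells, so these counts are near the shares of all. The highest in level, miR-335-3p, rose by 2.67 in PGK and 2.39 in E14 on the log2 scale (edgeR adjusted p = 0.00193 and 0.00537). Its partner miR-335-5p rose by 3.44 in PGK (adjusted p = 0.00850) and had 2.24 in E14 (edgeR adjusted p = 0.0591). Of the others, miR-129-5p, which has a second gene elsewhere, rose by 1.67 and 2.26 (adjusted p = 0.0183 and 0.00473), and miR-29a-3p had -0.68 and -1.06 and did not pass.

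Markers of other cell types moved beside the cluster, at a stage where 43.5% of all tested miRNAs changed in PGK and 40.7% in E14. The summed level of 6 blood miRNAs was 35.2 to 40.3 CPM in late PGK and 23.03 to 45.8 CPM in late E14 libraries, against 910 to 1268 CPM and 521 to 1546 CPM at day 0, and 3 of 5 tested fell in each line. A sum over 5 mesenchymal miRNAs was 1991 to 2636 CPM in late PGK and 1229 to 3129 CPM in late E14 cells, against 3746 to 8817 CPM and 3254 to 6853 CPM at day 0, with 3 tested members rising and 2 falling in PGK and 1 rising and 0 falling in E14. Levels of 4 endoderm miRNAs summed to 3866 to 5518 CPM in late PGK and 2166 to 10086 CPM in late E14 cells, against 1169 to 2170 CPM and 1719 to 3635 CPM at day 0. Of the 3 tested, 1 rose and 2 fell in each line. The liver miRNA miR-122-5p reached at most 1 count in any library. The 3 neural miRNAs summed to 292 to 376 CPM in late PGK and 481 to 1130 CPM in late E14 cells, against 164 to 256 CPM and 212 to 314 CPM at day 0, with 1 rising in PGK and 2 rising and 1 falling in E14. The 4 muscle miRNAs summed to 55.8 to 56.7 CPM in late PGK and 38.0 to 73.9 CPM in late E14 cells, against 4.55 to 15.1 CPM and 3.65 to 3.68 CPM at day 0, with 2 of 3 tested rising in each line and miR-206-3p at no more than 2 counts. The part of any of these in the changes of the cluster was not tested.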

How the data were processed

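No reads were aligned here. In the authors' deposited raw tables each value is a count of one miRNA in one small RNA library (Illumina, from Trizol extracts, per the labels' protocols). The submitters' processing notes mention CASAVA 1.8.2, DESeq2 without a version, and GRCm38 and mm10 as builds. What aligner and miRNA annotation were used, and how reads that match several miRNAs were counted, the sources used here do not say. Each deposited normalized signal value equals the authors' count over 1 size factor per library, which was checked. The deposited log2 values are the authors' variance-stabilized ones and served in an alternative.

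Of 1109 miRNAs in the female table and 1091 in the male table, 1063 are shared. The counts of all 20 libraries were fitted together in edgeR 4.0.16 under R 4.3.3 (quasi-likelihood F test, a coefficient for each group, TMM factors). The filterByExpr function kept 813 miRNAs, over which p-values were adjusted within a contrast by the Benjamini-Hochberg method, with 0.05 as threshold. For ratios within a library 0.5 was added to every count, and late libraries were set against day 0 over both lines by exact permutation tests of 4 against 4. The main edgeR fit was also tested on simulated counts with known changes in late PGK cells, and the exact permutation test on known and random values. The replicate block and the other alternative fits were not tested on simulated data. With totals of 7112398 to 18031067 counts, 3 counts are 0.166 to 0.422 CPM, for counting error only.

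Groups follow the line and day of the labels. P-values measure the spread between 2 differentiation experiments, pooled over groups. As the labels name the experiment, equal replicate numbers were taken to mark a shared experiment, also between the lines. The block adds 1 term for it. Deviations from group means correlated at 0.130 to 0.554 between the lines within a stage and experiment (5 of 5 over 0.1), and at -0.0179 to 0.403 between a later stage and day 0 of a line (4 of 8 over 0.1). With day 0, days 19 to 23 and the late stage correlated at -0.0179 and 0.0499 in PGK and at 0.0570 and 0.136 in E14.

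The cluster arms, lists and tests were chosen with earlier results of these data known. The rule for names took the 6 arms, RefSeq miRNAs with the seed of a 5p arm, the 5 miRNAs of at least 50 CPM most correlated with the mean 5p arm, and up to 4 members per list by mean CPM. Sequences come from RefSeq and neighbouring genes from GENCODE M21. As alternatives, scaling was by RLE or total counts. The filter was dropped or set to a mean of 10 CPM, and the replicate block, DESeq2 1.42.0, limma 3.58.1 on the deposited log2 values, or each line alone replaced the main fit. For ratios another pseudocount and all libraries of days 19 to 30 were tried. Each library was left out in turn. The block within each line alone was added after seeing the data.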

Additional observations from a re-analysis of the deposited data

How the results depend on the processing

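The number of arms called against day 0 changed with the setting as follows. In late E14 cells it was 2, and 1 with RLE scaling, total-count scaling, no filter or each line alone, and 0 with limma on the deposited log2 values. Total-count scaling gave 0 in PGK at day 4 and 1 at days 19 to 23, and each line alone gave 1 in E14 at days 19 to 23. The replicate block gave 2 in PGK at days 19 to 23, 2 late and 2 in E14 at days 19 to 23, and it changed no other call than those given with it above. Each line alone with the block, chosen after seeing the data, gave 3, 2 and 2 there, and 1 in E14 at day 4. Leaving out 1 library gave 0 to 2 calls in PGK at day 4, 0 to 1 at day 10, 0 to 1 at days 19 to 23 and 0 to 1 late, and in E14 0 to 3 at days 19 to 23 and 0 to 3 late. The late changes of the arms without 1 library ran from -0.95 to 0.0873 for miR-96-5p in PGK, and in E14 from -0.49 to 0.43 for miR-182-3p and from -0.44 to 0.46 for miR-96-3p. Under total counts the late miR-96-5p change in E14 was 0.10. Of 30 changes not given one by one, 11 took the other sign under at least 1 of 9 settings, none of them called. The log2 difference of the 5p over 3p ratio was -0.35 for miR-183 with all libraries of days 19 to 30 (exact permutation, adjusted p = 0.0404). That test passed, but it takes 2 stages of the same experiments as independent libraries, so its p can be too small. With the replicate block, which cannot pass, the difference was -1.07 for miR-96 and -1.88 for miR-182. Without 1 library it ran from -1.24 to -0.86 for miR-96 and from -2.23 to -1.31 for miR-182, and that of miR-183-5p over miR-182-5p from -0.12 to 0.0903. DESeq2, the 10 CPM filter and the other pseudocount moved none of these counts and calls. The cause of these changes was not tested. Counting error is widest for miR-182-3p, whose lowest library holds 54 counts.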
